A study of Homo sapiens with 8 samples.

Results

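The 10 genes described here encode the core of P-TEFb (CDK9, CCNT1 and CCNT2), proteins of the 7SK ribonucleoprotein that holds it (HEXIM1, HEXIM2 and LARP7), and the scaffolds and elongation factors of the super elongation complex (AFF1, AFF4, ELL and ELL2). They were found by gene symbol, by a rule that uses no measured value but was written with earlier results of these data known, and each matched 1 row, so that 10 of the 22504 rows of the table were read. Levels came from RNA sequencing of poly(A)-selected RNA from U2OS, an established osteosarcoma cell line of human origin. The 4 groups, with 2 libraries each, were cells overexpressing the actin mutant G13R after serum stimulation, the same cells in normal growth, cells expressing GFP after serum stimulation, and GFP cells in normal growth. The labels do not give the actin gene that carries the mutation, the promoter that drives it, how long serum was applied, or whether cells were starved before it. G13R is known as an actin that does not polymerise, and GFP served as the control protein in the comparison.

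P-TEFb is the kinase that releases promoter-paused RNA polymerase II into productive elongation. CDK9 is its catalytic subunit, and cyclin T1 or cyclin T2 is its partner. Much of the P-TEFb of a cell is held inactive on the noncoding 7SK RNA, where HEXIM1 or HEXIM2 inhibits the kinase and LARP7 protects the RNA. Active P-TEFb is carried to genes by the super elongation complex, whose scaffold is an AFF protein and which also holds an ELL elongation factor. The complex is known for the rapid induction of genes by stimuli such as serum, and actin has been reported to bind CDK9.

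Between 12065 and 12568 genes reached 1 FPKM (fragments scaled to transcript length and to the mapped fragments of the library) in a library, and the depth behind the values is unknown. GFP serum replicate 2 stood apart, at 44.7 on a first principal component that held 53.9% of the variance, against 11.8 and 14.5 for the G13R serum libraries and 26.0 for GFP serum replicate 1. Between the 2 GFP serum libraries 186 of the 12996 genes tested differed over 2-fold in FPKM + 1, against 87 to 102 genes in the other groups. The osteoblast markers ALPL, COL1A1, SPARC and RUNX2 averaged at least 1 FPKM, 4 of the 7 listed. The summed osteoblast level was 513 to 557 FPKM in G13R serum, 429 to 471 FPKM in G13R normal, 659 to 823 FPKM in GFP serum and 568 to 659 FPKM in GFP normal libraries. Of 5 neural markers, RBFOX3, MAP2 and SNAP25 averaged at least 1 FPKM, and their list summed to 19.1 to 21.4 FPKM in G13R serum, 15.2 to 16.2 FPKM in G13R normal, 19.7 to 23.5 FPKM in GFP serum and 16.3 to 18.8 FPKM in GFP normal libraries. Of 5 leukocyte markers CD68 did, and that list summed to 12 to 13.4 FPKM, 10.4 to 10.9 FPKM, 11.9 to 13.3 FPKM and 10.1 to 11.7 FPKM in the same order of groups. Both lists thus moved with serum, and their part in the results below was not tested. CDH1 and EPCAM were the 2 of 5 epithelial markers at 1 FPKM or more, 0 of 5 endothelial markers averaged that level, and PECAM1 was listed at 0 in each library. Whether the libraries of a group are separate cultures is not in the labels, and p-values reflect only how far such libraries differ, possibly for technical reasons. In bulk RNA, fewer cells that express a gene and less RNA per cell cannot be told apart.

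Per length of transcript, CDK9 was the most abundant of the 10 messages, with a mean of 41.8 FPKM over the 8 libraries. AFF4 came next at 33.8 FPKM and was below CDK9 in 7 of 8 libraries. ELL2 at 23.5 FPKM, CCNT2 at 22.4 FPKM and LARP7 at 20.4 FPKM were not separable, since ELL2 was above CCNT2 in 4 of 8 libraries and CCNT2 above LARP7 in 5 of 8. AFF1 followed at 16.3 FPKM, below LARP7 in 8 of 8 libraries. CCNT1 and HEXIM1 both averaged 12.8 FPKM, with CCNT1 the higher in 5 of 8 libraries, and ELL averaged 9.75 FPKM, below HEXIM1 in 7 of 8. HEXIM2 was the lowest at 1.73 FPKM, below ELL in 8 of 8 libraries. CDK9 ranked above 81.5% of the 12996 genes tested by its mean, and HEXIM2 above 11.5%. The highest library was 1.18 times the lowest for CCNT1, 2.04 times for HEXIM1 and 4.09 times for HEXIM2, the smallest and the 2 largest spreads of the 10. The plot of the 10 genes by library shows these levels and how little most of them moved.

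**Figure D1:**
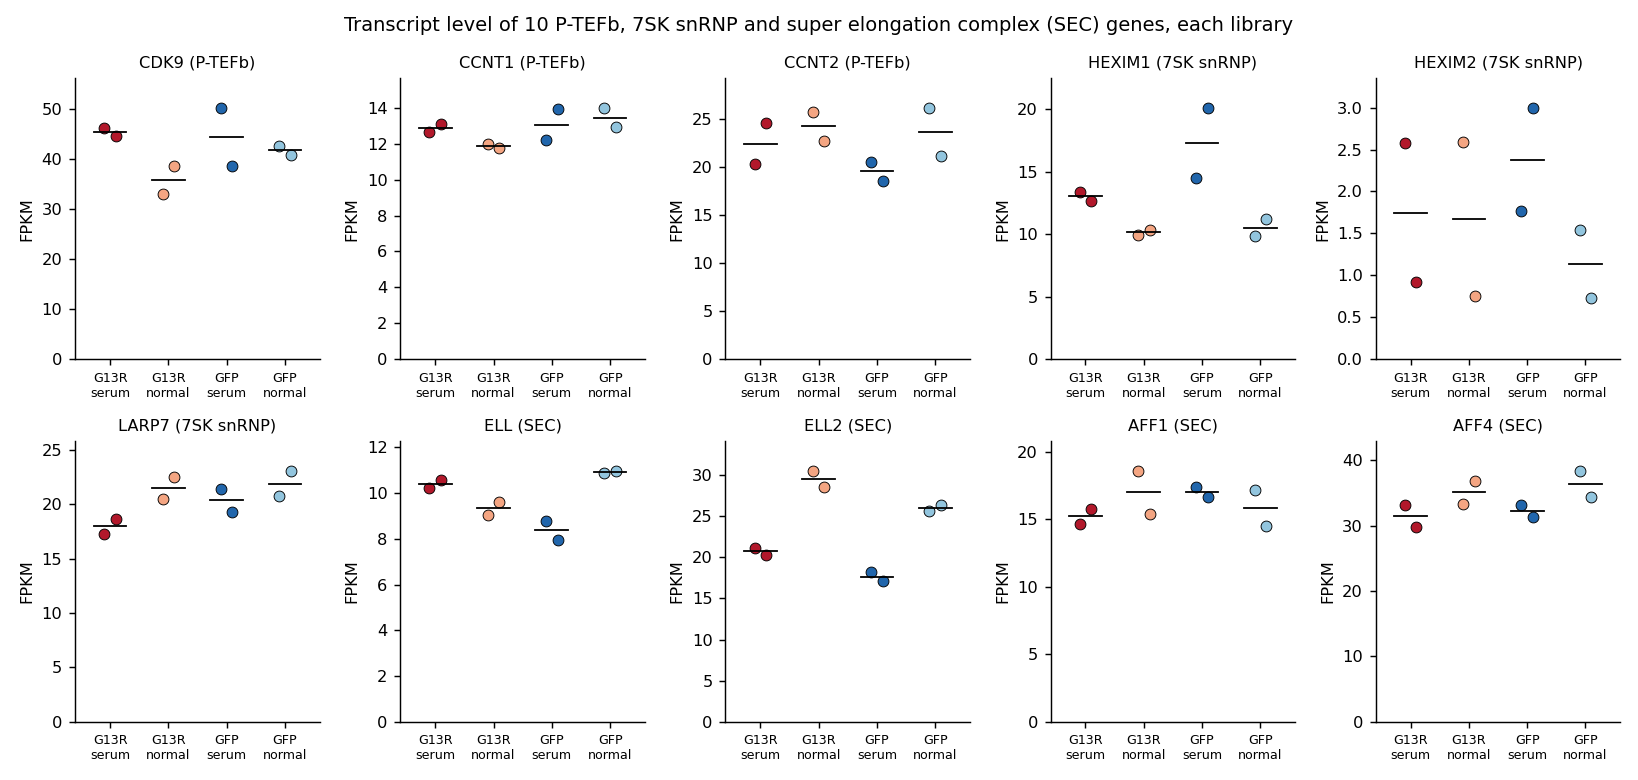
FPKM of the 10 genes (vertical axes, from 0) in each library (points) of the 4 groups (horizontal axis), with the mean of the 2 libraries as a line. ELL2 lies at 17.1 to 21.2 FPKM after serum and at 25.6 to 30.5 FPKM in normal growth, HEXIM1 lies higher after serum in both kinds of cell, and the HEXIM2 libraries of a group lie far apart.

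With serum, ELL2 was called lower in G13R cells and in GFP cells, and HEXIM1 was called higher in GFP cells. CDK9 and its cyclins were not called. In G13R cells CDK9 rose by 0.34 and HEXIM1 by 0.33 on the log2 scale, neither called, so the calls do not set the 2 apart there. A gene was called when its Benjamini-Hochberg adjusted p in limma, over the 12996 genes tested, was under 0.05. After serum in G13R cells, 0 of the 10 genes rose and 1 fell, where 8.26% of all genes tested rose and 4.62% fell. After serum in GFP cells, 1 of the 10 rose and 1 fell, where 14.9% of all genes rose and 15.7% fell. Over both kinds of cell together, again 1 rose (HEXIM1) and 1 fell (ELL2), against 20.5% and 18.2% of all genes. With 1 gene called in a direction at most, these shares are near those of all genes. In all 4 serum libraries HEXIM1 was above all 4 normal growth libraries, which held for 16.9% of all genes, and ELL2 and AFF4 were below them, which held for 14.6%. The median log2 fold change of the 10 genes was -0.02 in G13R cells and -0.07 in GFP cells, beside 0.04 and 0.01 over all genes tested. POLR2A, the largest subunit of RNA polymerase II, fell too, by 0.50 on the log2 scale in G13R cells (SE 0.07, adjusted p = 0.00259) and by 0.81 in GFP cells (SE 0.07, adjusted p = 8.39e-05).

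G13R cells did not differ from GFP cells by a call in any of the 10 genes. The counts called in limma were 0 of 10 after serum, where 0.331% of all genes were higher in G13R cells and 0.492% lower, and 0 of 10 in normal growth, where 0.0462% were called in either direction. Over both conditions together 0 of 10 were called, where 0.8% of all genes were higher and 2.69% lower. At an unadjusted p under 0.05, 1 gene passed after serum (HEXIM1, lower in G13R cells), 0 passed in normal growth, and 1 passed over both conditions (ELL2, higher in G13R cells), against 20.8%, 15.1% and 22.2% of all genes. For 0 of the 10 genes were all 4 G13R libraries above all 4 GFP libraries, which held for 1.67% of all genes, and for 0 were they below, which held for 4.71%. The serum responses of G13R and GFP cells differed by a call for 0 of the 10 genes and for 0% of all genes tested, with 1 of the 10 (ELL) and 11.8% of all genes at an unadjusted p under 0.05. By comparison ACTB, the beta-actin gene, exceeded its GFP level by 1.69 ± 0.08 (SE) on the log2 scale in G13R cells after serum and by 1.98 ± 0.08 in normal growth, and the values do not separate mutant from endogenous message. The plot of fitted fold changes shows the 10 genes in these 4 comparisons.

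**Figure D2:**
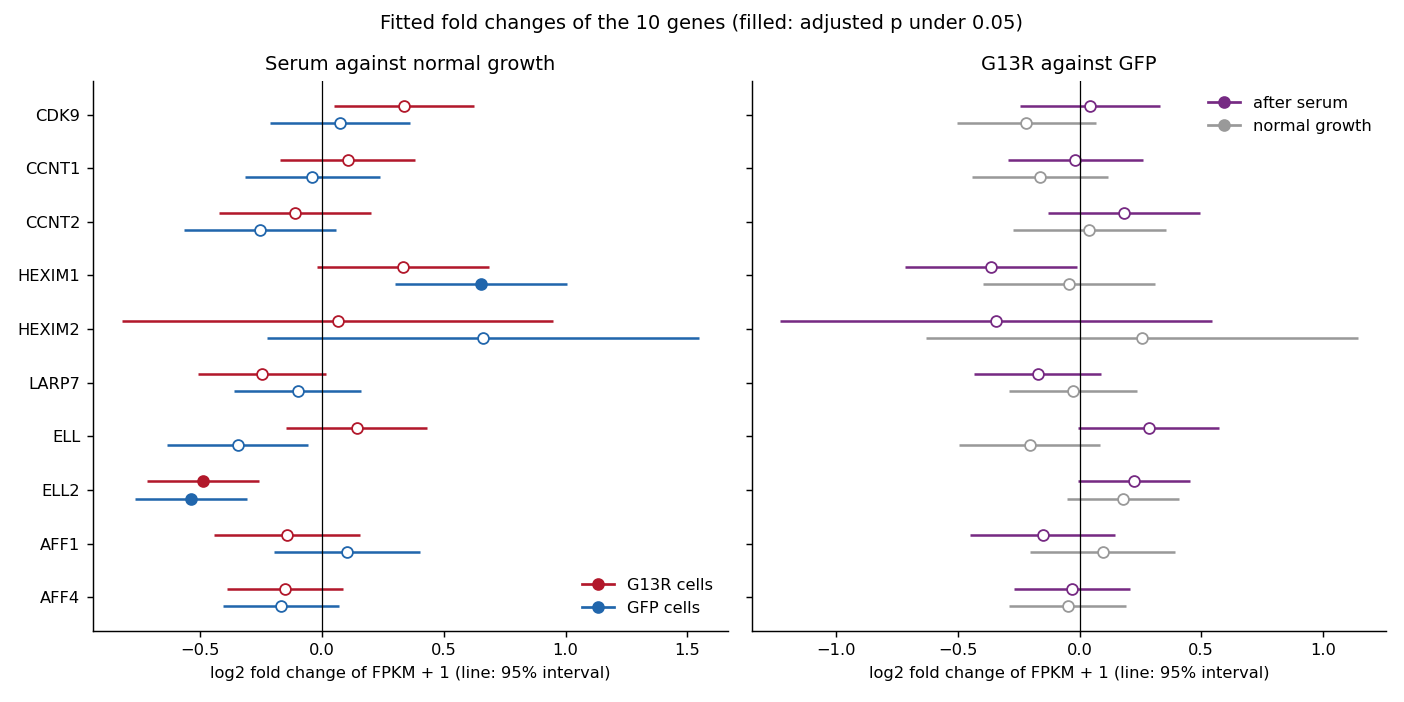
Log2 fold changes of FPKM + 1 (horizontal axes) with 95% intervals for the 10 genes, serum against normal growth in G13R and GFP cells (left) and G13R against GFP after serum and in normal growth (right). Filled points, at an adjusted p under 0.05, are ELL2 in both kinds of cell and HEXIM1 in GFP cells, and no point on the right is filled.

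CDK9, the kinase of P-TEFb (chromosome 9, hg19 130547958 to 130553066), stood at 46.1 and 44.6 FPKM in G13R serum, 33.0 and 38.5 FPKM in G13R normal, 50.0 and 38.6 FPKM in GFP serum, and 42.6 and 40.8 FPKM in GFP normal libraries. Both G13R serum libraries lay above both G13R normal libraries, while the GFP groups overlapped. The share of all genes whose groups separate in this way was not counted, for CDK9 or for the genes below. On serum its log2 fold change was 0.34 ± 0.13 (SE, adjusted p = 0.113, 95% interval 0.05 to 0.62) in G13R cells and 0.07 ± 0.13 (adjusted p = 0.691, -0.21 to 0.36) in GFP cells. In G13R cells this passed the threshold when either GFP serum library was left out of the shared estimate of spread (adjusted p = 0.0399 and 0.0391), with the fold change itself the same. Over both kinds of cell it was 0.21 ± 0.09 (adjusted p = 0.1), and 0.30 (adjusted p = 0.0144) without GFP serum replicate 2. The row overlaps that of the microRNA gene MIR3960.

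CCNT1, which encodes cyclin T1 (chromosome 12, 49082247 to 49110681), varied least, between 11.8 and 14.0 FPKM over the 8 libraries. Its serum response was 0.11 ± 0.13 in G13R cells and -0.04 ± 0.13 in GFP cells on the log2 scale, with 95% intervals of -0.17 to 0.38 and -0.32 to 0.24. CCNT2, which encodes cyclin T2 (chromosome 2, 135675805 to 135716912), had 20.3 and 24.5 FPKM in G13R serum, 25.7 and 22.7 FPKM in G13R normal, 20.5 and 18.6 FPKM in GFP serum, and 26.0 and 21.1 FPKM in GFP normal libraries. In GFP cells both serum libraries were below both normal growth libraries, and in G13R cells the groups overlapped. The log2 fold changes were -0.11 ± 0.14 in G13R cells (-0.42 to 0.20) and -0.25 ± 0.14 in GFP cells (-0.57 to 0.06), neither called. The FPKM ratio of CCNT2 to CCNT1 within a library ran from 1.33 to 2.14, so the cyclin T2 message was the more abundant per length in each of the 8 libraries, and serum and normal growth overlapped in it. The sum of both cyclins was 0.654 to 1.14 times CDK9 and exceeded it in 1 library, G13R normal replicate 1. The ratio of CDK9 to CCNT2 ran from 1.28 to 2.44, and serum and normal growth overlapped in it too.

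HEXIM1, the inhibitor of P-TEFb in the 7SK ribonucleoprotein (chromosome 17, 43224684 to 43229468), rose with serum in GFP cells. It had 13.4 and 12.7 FPKM in G13R serum, 9.95 and 10.4 FPKM in G13R normal, 14.5 and 20.1 FPKM in GFP serum, and 9.85 and 11.2 FPKM in GFP normal libraries. Each serum library was above each normal growth library, and GFP serum replicate 2, the library that stood apart, was the highest. The means were 13 ± 0.515 FPKM in G13R serum, 10.2 ± 0.294 FPKM in G13R normal, 17.3 ± 3.92 FPKM in GFP serum and 10.5 ± 0.956 FPKM in GFP normal cells (SD, n = 2). The log2 fold change on serum was 0.33 ± 0.16 in G13R cells (adjusted p = 0.194, 95% interval -0.02 to 0.69) and 0.65 ± 0.16 in GFP cells (adjusted p = 0.0120, 0.30 to 1.01). Over both kinds of cell it was 0.49 ± 0.11 (adjusted p = 0.00661). The difference between the responses, G13R minus GFP, was -0.32 ± 0.22 (adjusted p = 0.607, -0.82 to 0.18), so a larger response in GFP cells was not shown. The GFP call was lost without GFP serum replicate 2 (0.43, adjusted p = 0.0800), without GFP normal replicate 1 (0.57, adjusted p = 0.0830) and with no filter on low values (adjusted p = 0.0745), and that over both kinds of cell with no filter (adjusted p = 0.0518). After serum HEXIM1 was lower in G13R than in GFP cells by a log2 value of -0.36 ± 0.16 (adjusted p = 0.228, -0.72 to -0.01). Without GFP serum replicate 1, which leaves GFP serum replicate 2 alone in its group, this was -0.58 and called (adjusted p = 0.0354).

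HEXIM2 encodes a second inhibitor that can stand in for HEXIM1, and its row (chromosome 17, 43238067 to 43247407) begins 8598 bases after that of HEXIM1 ends. It had 2.58 and 0.917 FPKM in G13R serum, 2.59 and 0.750 FPKM in G13R normal, 1.76 and 2.99 FPKM in GFP serum, and 1.54 and 0.731 FPKM in GFP normal libraries. It reached 1 FPKM in 5 of 8 libraries, and the libraries of G13R normal cells differed by 3.45 times. Its log2 serum value was 0.06 ± 0.40 in G13R cells (-0.82 to 0.95) and 0.66 ± 0.40 in GFP cells (adjusted p = 0.235, -0.23 to 1.55), so changes well over that of HEXIM1 were not detectable for it. HEXIM1 exceeded HEXIM2 by 3.84 to 15.3 times in FPKM.

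The sequence before the start sites of the neighbouring HEXIM genes is shown because HEXIM1 was called with serum, while HEXIM2, the lowest of the 10 genes, was not. Both are the 250 bases before a start site in RefSeq's GRCh38.p14 promoter table, on the plus strand, at chr17:45148225-45148474 for HEXIM1 and chr17:45161625-45161874 for HEXIM2. Capitals mark matches on either strand to 3 motifs, which did not overlap one another in these windows. The TATA box was searched as TATAAA. The GC box was searched as GGGCGG and its reverse complement. The motif called CCAAT by its letters was searched in the same way.
HEXIM1: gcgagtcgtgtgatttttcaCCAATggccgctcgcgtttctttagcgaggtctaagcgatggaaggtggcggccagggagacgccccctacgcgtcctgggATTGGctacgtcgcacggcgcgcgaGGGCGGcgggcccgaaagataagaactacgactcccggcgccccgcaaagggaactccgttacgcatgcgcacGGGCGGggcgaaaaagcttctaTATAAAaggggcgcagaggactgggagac
HEXIM2: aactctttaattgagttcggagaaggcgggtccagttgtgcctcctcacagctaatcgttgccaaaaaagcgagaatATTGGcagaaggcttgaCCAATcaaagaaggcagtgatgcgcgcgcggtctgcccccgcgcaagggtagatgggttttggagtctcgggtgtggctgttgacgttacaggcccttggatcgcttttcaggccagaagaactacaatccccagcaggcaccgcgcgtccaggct
HEXIM1 holds the TATA box 29 to 24 bases before its start, 2 GC boxes and 2 matches to CCAAT. The HEXIM2 window holds 2 matches to CCAAT and neither of the other motifs, and its other listed start site (chr17:45159924-45160173, not printed) holds none of the 3. GC content was 62.4% before HEXIM1 and 55.2% before HEXIM2, and 36% before that other start. The table held windows for 9 of the 10 genes, 13 in all, and no entry for ELL2. HEXIM1 was the single gene of the 9 with TATAAA, which 10.7% of the 35097 windows hold. The GC box was in 9 of the 13 windows and in 42.6% of all, and the CCAAT motif in 7 of 13 and 32.0%. The E-box CACGTG, which reads the same on both strands, occurred before AFF4 and CCNT1 (6.34% of all windows) and the cyclic AMP response element TGACGTCA before LARP7 (1.65%). The AP-1 motif TGANTCA and the CArG box bound by SRF were in 0 of the 13 windows, and in 6.57% and 1.16% of all. A match of letters is not evidence of binding, and a missing match concerns these 250 bases alone.

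LARP7, which binds and stabilises 7SK RNA (chromosome 4, 113558120 to 113578748), had 17.2 and 18.7 FPKM in G13R serum, 20.5 and 22.5 FPKM in G13R normal, 21.4 and 19.3 FPKM in GFP serum, and 20.8 and 23.0 FPKM in GFP normal libraries. The G13R serum libraries were the lowest of the 8. Against normal growth its log2 fold change was -0.25 ± 0.12 in G13R cells (adjusted p = 0.194, -0.51 to 0.02) and -0.10 ± 0.12 in GFP cells (adjusted p = 0.550, -0.36 to 0.16). Its row spans those of 5 microRNA genes, MIR302A, MIR302B, MIR302C, MIR302D and MIR367. Within a library the FPKM ratio of HEXIM1 to LARP7 was 0.778 and 0.679 in G13R serum, 0.486 and 0.460 in G13R normal, 0.677 and 1.04 in GFP serum, and 0.474 and 0.486 in GFP normal libraries. The 4 serum libraries were above the 4 normal growth libraries in both kinds of cell. HEXIM1 by itself separated in the same way, and the share of gene pairs that do was not counted. The ratio of HEXIM1 to CDK9 did overlap, with 0.291 and 0.284 in G13R serum, 0.301 and 0.269 in G13R normal, 0.290 and 0.520 in GFP serum, and 0.231 and 0.275 in GFP normal libraries. Of the inhibitor over the kinase, then, GFP serum replicate 2 alone was far from the rest.

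ELL2, an elongation factor that helps RNA polymerase II past pauses (chromosome 5, 95220802 to 95297775), fell with serum in both kinds of cell. It had 21.2 and 20.3 FPKM in G13R serum, 30.5 and 28.6 FPKM in G13R normal, 18.2 and 17.1 FPKM in GFP serum, and 25.6 and 26.4 FPKM in GFP normal libraries. All 4 serum libraries were below all 4 normal growth libraries, and replicates differed by at most 1.07 times. The means were 20.8 ± 0.604 FPKM in G13R serum, 29.5 ± 1.34 FPKM in G13R normal, 17.6 ± 0.772 FPKM in GFP serum and 26.0 ± 0.545 FPKM in GFP normal cells (SD, n = 2). The log2 fold change was -0.49 ± 0.10 in G13R cells (adjusted p = 0.0144), -0.54 ± 0.10 in GFP cells (adjusted p = 0.00389) and -0.51 ± 0.07 over both (adjusted p = 5.38e-04). The responses differed by 0.05 ± 0.15 (adjusted p = 0.932, 95% interval -0.28 to 0.37). The call in G13R cells was lost without any 1 of the 4 G13R libraries (-0.53 to -0.44, adjusted p = 0.0562 to 0.1), where a group is left with a single library. In each condition the G13R libraries were above the GFP libraries, by 0.22 ± 0.10 after serum (adjusted p = 0.249, -0.01 to 0.45) and 0.18 ± 0.10 in normal growth (adjusted p = 0.459, -0.05 to 0.41), neither called.

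ELL, the founding member of the same family (chromosome 19, 18553473 to 18632937), had 10.2 and 10.6 FPKM in G13R serum, 9.06 and 9.60 FPKM in G13R normal, 8.77 and 7.97 FPKM in GFP serum, and 10.9 and 11 FPKM in GFP normal libraries. In G13R cells both serum libraries were above both normal growth libraries, and in GFP cells both were below. How many of all genes show such a pattern was not counted. The log2 fold change on serum was 0.14 ± 0.13 in G13R cells (adjusted p = 0.502, -0.15 to 0.43) and -0.35 ± 0.13 in GFP cells (adjusted p = 0.0670, -0.64 to -0.06). The GFP value passed the threshold with no filter on low values (adjusted p = 0.0337) and with quantile normalization (-0.45, adjusted p = 0.0285). The difference of the responses, G13R minus GFP, was 0.49 ± 0.18 (adjusted p = 0.345, 95% interval 0.08 to 0.90). Within a library the FPKM ratio of ELL2 to ELL was 2.07 and 1.93 in G13R serum, 3.37 and 2.98 in G13R normal, 2.07 and 2.14 in GFP serum, and 2.36 and 2.41 in GFP normal libraries. The serum libraries were the lower in both kinds of cell, without overlap, and the G13R normal libraries had the highest ratios. ELL2 by itself separated in the same way, and the share of gene pairs that do was not counted.

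**Figure D3:**
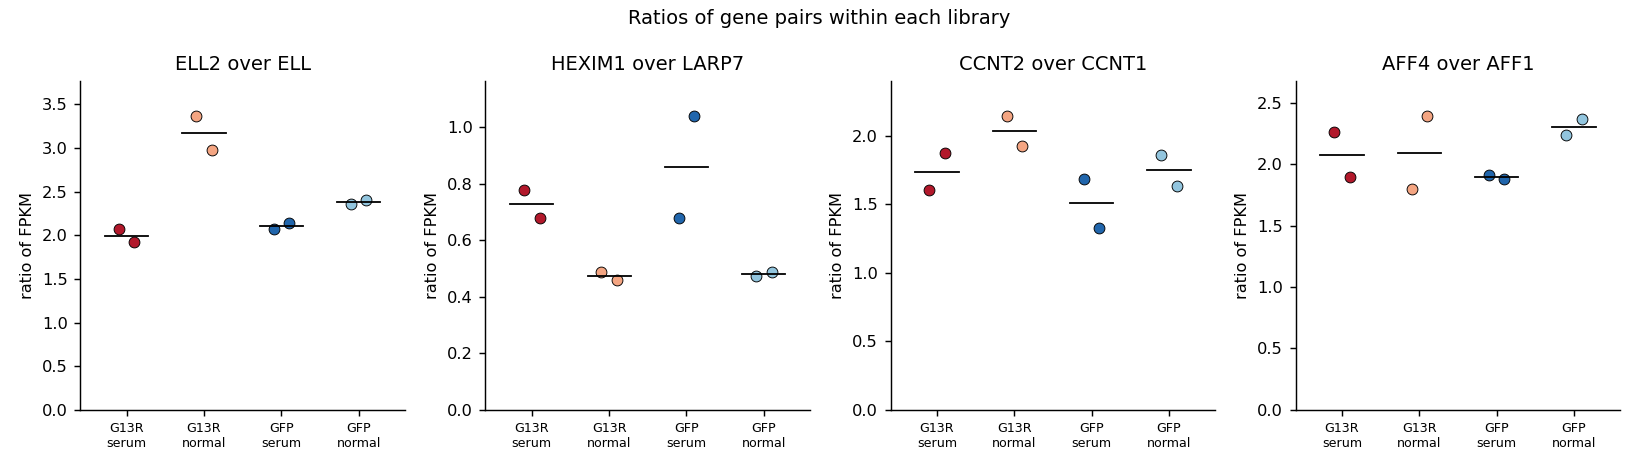
Ratio of FPKM of gene pairs within a library (vertical axes, from 0) by group (horizontal axis), with points for libraries and lines for means. ELL2 over ELL is lower and HEXIM1 over LARP7 higher in each serum library than in each normal growth library, while CCNT2 over CCNT1 (1.33 to 2.14) and AFF4 over AFF1 (1.8 to 2.39) overlap.

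The AFF scaffolds moved less. AFF4, the scaffold used by much of the super elongation complex (chromosome 5, 132211071 to 132299326), had 33.2 and 29.8 FPKM in G13R serum, 33.4 and 36.8 FPKM in G13R normal, 33.1 and 31.3 FPKM in GFP serum, and 38.3 and 34.4 FPKM in GFP normal libraries. All 4 serum libraries were below all 4 normal growth libraries, by a narrow margin. The log2 fold change was -0.15 ± 0.11 in G13R cells (adjusted p = 0.377, -0.39 to 0.09), -0.17 ± 0.11 in GFP cells (adjusted p = 0.259, -0.41 to 0.07) and -0.16 ± 0.08 over both (adjusted p = 0.120, -0.33 to 0.01). AFF1, the related scaffold (chromosome 4, 87856154 to 88062206), had 14.7 and 15.8 FPKM in G13R serum, 18.6 and 15.4 FPKM in G13R normal, 17.3 and 16.7 FPKM in GFP serum, and 17.1 and 14.5 FPKM in GFP normal libraries. Serum and normal growth libraries overlapped in both kinds of cell. Its log2 fold changes were -0.14 ± 0.13 in G13R cells (-0.44 to 0.15) and 0.10 ± 0.13 in GFP cells (-0.20 to 0.40). The AFF1 row overlaps that of C4orf36.

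The genes of most similar pattern were sought for HEXIM1, ELL2 and HEXIM2, the 3 genes whose group means ranged widest, by Pearson's r on log2(FPKM + 1) over the 8 libraries. Since serum and normal growth libraries form separate sets, these values describe the sets as much as the genes. For ELL2 they were NRIP3 at 0.986, ATXN7L2 at 0.985, MMP3 at 0.984, ANTXR2 at 0.984 and TNFSF8 at 0.982. MMP3, a matrix metalloproteinase, ran between 17.5 and 305 FPKM, a far wider range than that of ELL2. For HEXIM1 they were ZBTB22 at 0.996, CTNND1 at 0.995, PIK3IP1 at 0.994, BNIP3L at 0.992 and GNAS at 0.99. CTNND1 encodes the cadherin partner p120-catenin and ran between 23.7 and 46.2 FPKM. For HEXIM2, whose replicates differ most, the highest values were lower, from SFRP1 at 0.947 and KDM5A at 0.943 to FCHSD1 at 0.911, SLC9A3R1 at 0.904 and VRK3 at 0.898. None of the 10 genes was among the 5 nearest to any of these 3, and the other 7 were not searched.

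Beyond the 10 genes, 45 further genes of elongation were listed, of which 40 were in the table and 38 could be tested, and in GFP cells more of them fell with serum than rose. In G13R cells 2 of the 38 rose and 2 fell, beside 8.26% and 4.62% of all genes tested, shares near those of the list. In GFP cells 1 rose and 15 fell, beside 14.9% and 15.7% of all genes. Over both kinds of cell 1 rose and 17 fell, beside 20.5% and 18.2%. Their median log2 fold change was -0.18 in G13R cells and -0.28 in GFP cells, beside 0.04 and 0.01 over all genes tested. With no filter on low values the number that fell in GFP cells was 10, against 15. The GFP calls named below were thus not all kept there, nor were they without GFP serum replicate 2. Which of them were lost is not given. Without GFP normal replicate 1 the number that fell was 7 in GFP cells and 10 over both. In G13R cells the number called ran from 0 to 8 as single libraries were left out, with 0 without G13R serum replicate 2 or G13R normal replicate 1, and 8 (2 higher, 6 lower) without GFP serum replicate 1 or replicate 2. It was 7 with median-ratio scaling and 1 with no filter on low values. The plot of the other elongation genes shows the called ones by complex.

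**Figure D4:**
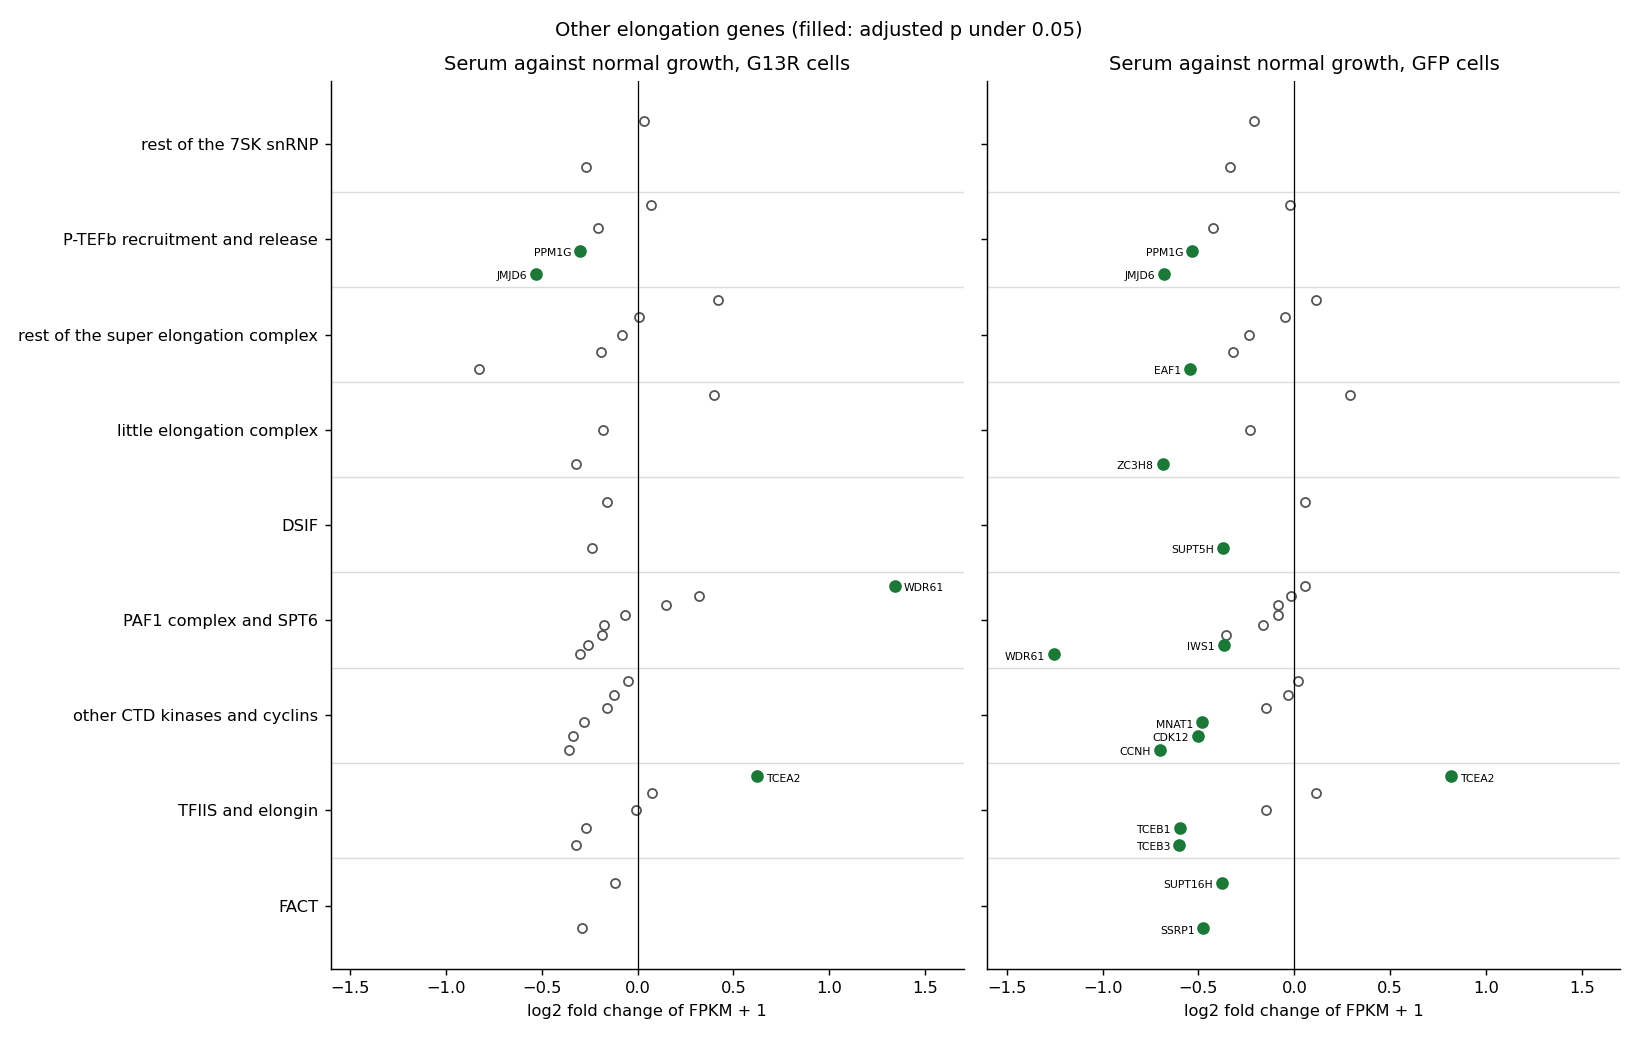
Log2 fold change of FPKM + 1 on serum (horizontal axes) for 37 other elongation genes, grouped by complex (vertical axis), in G13R cells (left) and GFP cells (right), 1 point a gene. Filled and named points passed an adjusted p of 0.05, 4 in G13R cells and 15 in GFP cells, and WDR61 is far right on the left and far left on the right.

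Among genes that recruit or release P-TEFb, JMJD6 and PPM1G fell in both kinds of cell. JMJD6, a hydroxylase that takes part in pause release, had 28.4 and 28.9 FPKM in G13R serum, 46.3 and 37.7 FPKM in G13R normal, 27.1 and 22.6 FPKM in GFP serum, and 41.0 and 39.6 FPKM in GFP normal libraries. Its log2 fold change was -0.53 ± 0.13 in G13R cells (adjusted p = 0.0231) and -0.68 ± 0.13 in GFP cells (adjusted p = 0.00314). No serum library reached a normal growth one, which held for 14.6% of all genes tested. PPM1G, a phosphatase that frees P-TEFb from 7SK, fell by 0.30 in G13R cells (SE 0.08, adjusted p = 0.0305) and by 0.53 in GFP cells (SE 0.08, adjusted p = 8.77e-04). The G13R calls of JMJD6 and PPM1G were both lost with no filter on low values. Both were also lost without either G13R serum library or without G13R normal replicate 1, where a group is left with a single library. Without G13R normal replicate 2 they were not both kept. Of the rest of the 7SK ribonucleoprotein, MEPCE, which caps 7SK, was not called, at 35.7 ± 0.545 FPKM in G13R serum, 34.9 ± 1.16 FPKM in G13R normal, 35.1 ± 1.30 FPKM in GFP serum and 40.8 ± 3.19 FPKM in GFP normal cells (SD, n = 2). SART3 fell by 0.30 over both kinds of cell together (adjusted p = 0.0168) and was called in neither kind alone.

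Of the rest of the super elongation complex, 5 of 7 genes could be tested, since AFF2 and ELL3 stayed under 1 FPKM. EAF1, an ELL partner, was at 7.09 ± 0.0372 FPKM in G13R serum, 7.58 ± 0.775 FPKM in G13R normal, 6.39 ± 0.790 FPKM in GFP serum and 9.75 ± 0.541 FPKM in GFP normal cells, and fell by 0.55 in GFP cells (SE 0.15, adjusted p = 0.0211). AFF3, at 0.751 to 3.79 FPKM, fell by 0.57 over both kinds of cell together (adjusted p = 0.0408). It was called in neither kind alone, at -0.82 in G13R cells (adjusted p = 0.0771) and -0.32 in GFP cells (adjusted p = 0.409). ZC3H8 of the little elongation complex, which also uses ELL, fell by 0.69 in GFP cells (adjusted p = 0.0188). Of DSIF, SUPT5H fell by 0.37 in GFP cells (SE 0.09, adjusted p = 0.0118), with 54.0 and 47.7 FPKM in G13R serum, 59.8 and 60.1 FPKM in G13R normal, 45.3 and 45.4 FPKM in GFP serum, and 59.1 and 59.1 FPKM in GFP normal libraries. All serum libraries of SUPT5H were below all normal growth ones, which held for 14.6% of all genes tested. It was not called in G13R cells (-0.24 ± 0.09, adjusted p = 0.113). Its partner SUPT4H1 was not called, with log2 fold changes of -0.16 ± 0.13 in G13R cells and 0.06 ± 0.13 in GFP cells. The NELF genes and 7SK RNA itself are not analysed here.

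Of the other kinases of the polymerase tail and their cyclins, 0 of 6 were called in G13R cells, where 4.62% of all genes fell, and 3 of 6 fell in GFP cells, where 15.7% did. None of the 6 was called in the difference of the responses. Those that fell in GFP cells were CCNH (-0.70 ± 0.14, adjusted p = 0.00436) and MNAT1 (-0.48 ± 0.11, adjusted p = 0.0108), partners of CDK7, and CDK12 (-0.50 ± 0.11, adjusted p = 0.00592). Both FACT subunits fell in GFP cells, SSRP1 by 0.47 (adjusted p = 0.00394) and SUPT16H by 0.38 (adjusted p = 0.0140). Of 3 elongin subunits, TCEB3 fell there by 0.60 (adjusted p = 0.00350) and TCEB1 by 0.60 (adjusted p = 8.20e-04), while TCEB2 was not called, at 0.11 (adjusted p = 0.465). Of the PAF1 complex and SPT6 list, IWS1 fell by 0.37 in GFP cells (adjusted p = 0.0474), and SUPT6H by 0.21 over both kinds of cell together (adjusted p = 0.0269). SUPT6H was called in neither kind alone.

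TCEA2, a TFIIS gene (chromosome 20, 62681189 to 62703700), rose in both kinds of cell. It had 24.1 and 26.4 FPKM in G13R serum, 15.9 and 16.2 FPKM in G13R normal, 26.5 and 29.9 FPKM in GFP serum, and 15.5 and 15.7 FPKM in GFP normal libraries. Its log2 fold change was 0.62 ± 0.11 in G13R cells (adjusted p = 0.00734) and 0.81 ± 0.11 in GFP cells (adjusted p = 7.24e-04). WDR61 of the PAF1 complex was called in opposite directions at very low levels, with 5.02 and 2.46 FPKM in G13R serum, 1.26 and 0.433 FPKM in G13R normal, 0.404 and 0 FPKM in GFP serum, and 2.82 and 1.09 FPKM in GFP normal libraries. Its log2 fold change on serum was 1.34 ± 0.37 in G13R cells (adjusted p = 0.0426) and -1.25 ± 0.37 in GFP cells (adjusted p = 0.0295). The G13R calls of TCEA2 and WDR61 were both lost without G13R serum replicate 2 or G13R normal replicate 1. They were not both kept without G13R serum replicate 1 or G13R normal replicate 2. A group is then left with a single library. Over all 8 libraries, only 1 of the 38 genes was called higher with serum in G13R cells with a pseudocount of 0.1, no filter or quantile normalization. The 2 calls were thus not both kept in these settings either. WDR61 was higher in G13R cells after serum by 1.94 ± 0.37 (adjusted p = 0.0487), but the difference of the responses, 2.60 ± 0.53, was not called (adjusted p = 0.259). The table gives WDR61 a span of only 1241 bases (chromosome 15, 78573292 to 78574532), and whether these values measure the whole gene is not known. Between G13R and GFP cells, 1 of the 38 genes was higher after serum (WDR61) and 0 were lower, beside 0.331% and 0.492% of all genes. In normal growth 0 were called, beside 0.0462% of all genes, and 0 in the difference of the responses, beside 0%. Over both conditions 0 were higher and 3 lower in G13R cells, beside 0.8% and 2.69% of all genes. The 3 were PAF1 (-0.39 ± 0.09, adjusted p = 0.0449), PPM1G (-0.24 ± 0.05, adjusted p = 0.0432) and TCEB2 (-0.32 ± 0.08, adjusted p = 0.0499). None of the 3 was called with median-ratio scaling, quantile normalization or no filter, nor without any single library other than GFP serum replicate 1. After serum the count was 0 with a pseudocount of 0.1, no filter or median-ratio scaling, and without any single library other than GFP serum replicate 1.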

How the data were processed

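Poly(A) RNA of U2OS cells was sequenced in 8 libraries, 2 in each of 4 groups. Per the submitters' processing notes the tools were TopHat2 2.0.13 and Cufflinks 2.2.1, and the builds hg19 and BDGP5. The authors deposited 1 table of FPKM values per gene and library, without stating a filter. Column names gave the library, with C taken for normal growth, and 0 columns were unmatched. Starts in the file count from 0 (81.8% of 148 short olfactory receptor genes then have a length divisible by 3), and 1 was added. FPKM holds no read counts, and reads were not recovered, because at most 15.4% of genes under 0.25 FPKM shared the commonest ratio between libraries, so no count test was run.

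In limma 3.58.1 (R 4.3.3), log2(FPKM + 1) was fitted with an intensity trend, 1 mean per group and 4 residual degrees of freedom over all 8 libraries. Fold changes on this scale understate the change of low genes. A gene was tested if 2 or more libraries held 1 FPKM or more, which 12996 of 22504 did, over 7 comparisons with Benjamini-Hochberg adjustment and a threshold of 0.05. The 2 means over conditions or kinds of cell are contrasts of the same fit, and comparisons that share a group are not independent. Errors are SE beside fold changes and SD beside FPKM. The script was tested on simulated data. Alternatives were a pseudocount of 0.1, no filter, median-ratio scaling, quantile normalization, the replicate number as a block, and leaving out each library. Of the further elongation genes, up to 3 called genes per list and comparison with the largest changes were named, besides DSIF. The counts of these genes include 1 that is not reported here by name and is not drawn. The 10 genes and the lists were chosen with earlier results of these data known.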

Additional observations from a re-analysis of the deposited data

Results flagged for a closer look

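ELL was set aside because its libraries moved in opposite directions. Both G13R serum libraries, at 10.2 and 10.6 FPKM, were above both G13R normal libraries, at 9.06 and 9.60 FPKM, while both GFP serum libraries, at 8.77 and 7.97 FPKM, were below both GFP normal libraries, at 10.9 and 11 FPKM. The same values place G13R above GFP cells after serum and below them in normal growth. How many of all genes show such a pattern was not counted, so it is not shown to be particular to ELL. The log2 difference of the serum responses, G13R minus GFP, was 0.489 ± 0.18 (SE), which is the same number as the difference of the G13R effects between serum and normal growth. It was tested in limma, with an unadjusted p of 0.0234 and an adjusted p of 0.345, and so was not called.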

How the results depend on the processing

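Of 910 recomputed fold changes of the 10 genes, 896 kept their call or lack of one, 8 lost it, 6 gained it and 0 called values changed sign, while 56 uncalled values did. The changed calls stand beside their genes in the report. With no filter, 1 of the 10 genes was called with serum over both kinds of cell, against 2. Leaving out single libraries gave 0 to 2 of the 10 genes called on serum in G13R cells (1 with all libraries), 1 to 2 in GFP cells (2), 0 to 1 for G13R against GFP after serum (0), and 2 to 3 over both kinds of cell (2). A group left with 1 library is then assumed to vary like the others.

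Counts over all genes moved more. With no filter, the counts were 578 against 1675 for serum in G13R cells, 2282 against 3985 in GFP cells, 4 against 107 for G13R against GFP after serum, 11 against 6 in normal growth, 10 against 0 for the difference of the responses and 16 against 454 for G13R over both conditions. Quantile normalization gave 180 after serum, 12 in normal growth, 2 for the difference and 279 over both conditions, where median-ratio scaling gave 284. A pseudocount of 0.1 gave 1 for the difference. Leaving out single libraries gave 413 to 2366 and 2155 to 4263 for serum in G13R and GFP cells, 5 to 1620 and 4 to 109 for G13R against GFP after serum and in normal growth, 0 to 486 for the difference and 14 to 1669 over both conditions, with 1620, 486 and 1669 without GFP serum replicate 1. The causes were not tested.

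With the replicate block, the 10 genes kept 1 call for serum in G13R cells, 2 in GFP cells and 0 between G13R and GFP, while all genes gave 403 after serum, 83 in normal growth and 719 over both conditions. The labels do not say that equal numbers mark a shared culture or day, so the numbers were not read as pairs. Deviations of same-numbered libraries correlated at 0.0169 to 0.121. A correlation over all genes tested does not decide whether they share a culture or day, which could act on few genes. Depth is unknown, and 2 libraries a group limit what could be called, most of all for HEXIM2.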
